A study of Mus musculus with 18 samples.

Results

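The 8 genes described here are coactivators of the PGC-1 family and factors that regulate mitochondrial biogenesis with them. They are Ppargc1a, Ppargc1b, Esrra, Ppara, Tfam, Nrf1, Sirt1 and Sirt3. They were chosen by name for their known function, at a time when earlier results of these data were known. Each was found once among the 36528 genes counted, by its Entrez Gene identifier. In the order above the identifiers are 19017, 170826, 26379, 19013, 21780, 18181, 93759 and 64384. Of the 8, 7 had enough reads to be tested, with Ppargc1b as the exception.

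RNASeq had been performed on primary RPTECs, renal tubulo-interstitial epithelial cells of C57BL/6 mice bought from ScienCell, in 18 samples. TWEAK is a cytokine of the TNF family, NIK is the kinase that starts non-canonical NF-κB signaling, and NIK SMI1 is a small molecule inhibitor of NIK. There were 3 samples in each of 6 groups: vehicle (DMSO), recombinant mouse TWEAK at 100 ng/mL, and the same TWEAK with NIK SMI1 at 3 µM, each for 6 h and for 24 h. There was no group with NIK SMI1 and no TWEAK, so every inhibitor comparison is one under TWEAK. The labels call the samples replicates and do not say whether they were separate cultures, so p-values measure the spread between these samples.

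PGC-1α, the product of Ppargc1a, is a transcriptional coactivator that carries no DNA-binding domain and acts by docking on transcription factors, among them ERRα (Esrra), PPARα (Ppara) and NRF1. NRF1 and ERRα drive nuclear genes for the respiratory chain, and TFAM, encoded in the nucleus, packages mitochondrial DNA and is a factor of its transcription. SIRT1 deacetylates PGC-1α in the nucleus and SIRT3 deacetylates enzymes inside mitochondria. In the kidney the proximal tubule is rich in mitochondria and burns fatty acids, and PGC-1α is known there as a regulator that falls in injury.

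The promoters of Ppargc1a, Esrra and Tfam are shown because these are the coactivator that moved most, its partner that moved slightly, and a target that did not pass the test. Each run holds the 250 bases before the transcription start in RefSeq (build GRCm38.p6), 5′ to 3′ on the strand of the gene. Capitals mark matches to the 4 motifs searched.
Ppargc1a, chr5:51567726-51567975, minus strand: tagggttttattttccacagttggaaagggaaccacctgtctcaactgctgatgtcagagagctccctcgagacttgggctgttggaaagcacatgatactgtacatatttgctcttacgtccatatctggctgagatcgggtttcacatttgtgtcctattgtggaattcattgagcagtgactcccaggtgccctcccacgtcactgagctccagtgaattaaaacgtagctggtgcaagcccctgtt
Esrra, chr19:6921809-6922058, minus strand: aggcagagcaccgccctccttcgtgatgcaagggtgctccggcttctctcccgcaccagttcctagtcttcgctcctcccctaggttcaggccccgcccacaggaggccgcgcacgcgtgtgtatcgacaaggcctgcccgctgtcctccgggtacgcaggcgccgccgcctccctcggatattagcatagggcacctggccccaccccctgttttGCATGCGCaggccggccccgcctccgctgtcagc
Tfam, chr10:71238045-71238294, minus strand: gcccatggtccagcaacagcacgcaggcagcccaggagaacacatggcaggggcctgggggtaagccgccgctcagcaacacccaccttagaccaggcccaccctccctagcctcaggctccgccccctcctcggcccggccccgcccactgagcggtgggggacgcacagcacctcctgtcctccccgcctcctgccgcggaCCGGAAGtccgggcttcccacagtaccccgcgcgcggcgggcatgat

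The motifs were the cyclic AMP response element TGACGTCA, the ERR half-site AAGGTCA, the NRF1 core GCGCATGC and the ETS site CCGGAAG bound by GABP, each on both strands. The search covered windows from 250 bases before to 50 bases after the start, 9 windows for 7 of the members. Ppargc1b was not searched. The Esrra window held the NRF1 core, read as GCATGCGC, from -34 to -27 relative to the start. The Tfam window held the ETS site from -47 to -41, and a window of Sirt3 held it, read as CTTCCGG, from -85 to -79. In the Ppara window 2 overlapping matches to the NRF1 core lay between -31 and -22. The windows of Ppargc1a, Nrf1 and Sirt1 held none of these letters. Of all 32851 RefSeq windows, 2.71% held the NRF1 core, 8.86% the ETS site, 4.72% the ERR half-site and 1.79% the cyclic AMP response element. A match is a description of the sequence and not a measured binding site.

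Each sample had between 18040966 and 51956444 reads counted in genes, and levels are given as CPM, the count scaled to the same library total in every sample. TWEAK signaling was visible in the control genes. Traf1, an adaptor induced by NF-κB, was at 0.828 to 1.59 CPM in the 6 vehicle samples, 22.4 to 59.7 CPM in the 6 TWEAK samples and 5.71 to 11.4 CPM in the 6 samples with NIK SMI1. The identity of the cells was less clear. Epithelial markers summed to between 7977 and 10615 CPM per sample. Of the defining markers of the proximal tubule, Slc34a1 and Slc22a6 were at 0 in 15 and 17 of the 18 samples and Hnf4a did not exceed 0.0575 CPM, while Slc5a2 reached 8.52 CPM and Cubn 4.64 CPM. Markers of other nephron segments summed to at most 0.399 CPM and endothelial markers to at most 0.813 CPM, fibroblast markers to between 13.4 and 19.8 CPM, and leukocyte markers to between 18.5 and 26.0 CPM. Reads of pancreatic islet genes were also present, and they differed between the groups at 24 h, as given beside Ppargc1a.

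The 8 members divided by level into 5 that were well expressed and 3 near the limit of detection. On the scale of RPKM, which corrects for exonic length, Esrra had the highest median over the 18 samples at 30.1, followed by Tfam at 12.4, Nrf1 at 7.59, Sirt1 at 4.75 and Sirt3 at 3.48. The sample ranges of Esrra, Tfam, Nrf1 and Sirt1 did not overlap, whereas the range of Sirt1 (3.52 to 5.94 RPKM) overlapped that of Sirt3 (2.64 to 4.11 RPKM). The median of Ppargc1a was 0.0397 RPKM, that of Ppara 0.0177 RPKM and that of Ppargc1b 0.0116 RPKM, and the ranges of these 3 overlapped. The transcripts of Ppargc1a, Ppargc1b and Ppara were thus present at a small fraction of the level of Esrra in these cultures. This does not hold for the whole PGC-1 family. Pprc1, a further coactivator of it that is not a member here, was at 150 CPM in vehicle at 6 h and 154 CPM at 24 h (means). In the same groups Esrra was at 87.1 and 78.0 CPM and Ppargc1a at 0.427 and 0.594 CPM. Unlike RPKM, these CPM are not corrected for exonic length.

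In reads, Ppargc1a had between 2 and 26 per sample, Ppara between 1 and 12, and Ppargc1b between 0 and 11. These counts leave wide counting error, and 3 reads correspond to between 0.0577 and 0.166 CPM depending on the sample. The 5 expressed members had at least 105 reads in every sample. All statements on Ppargc1a, Ppara and Ppargc1b below rest on few reads.

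**Figure D1:**
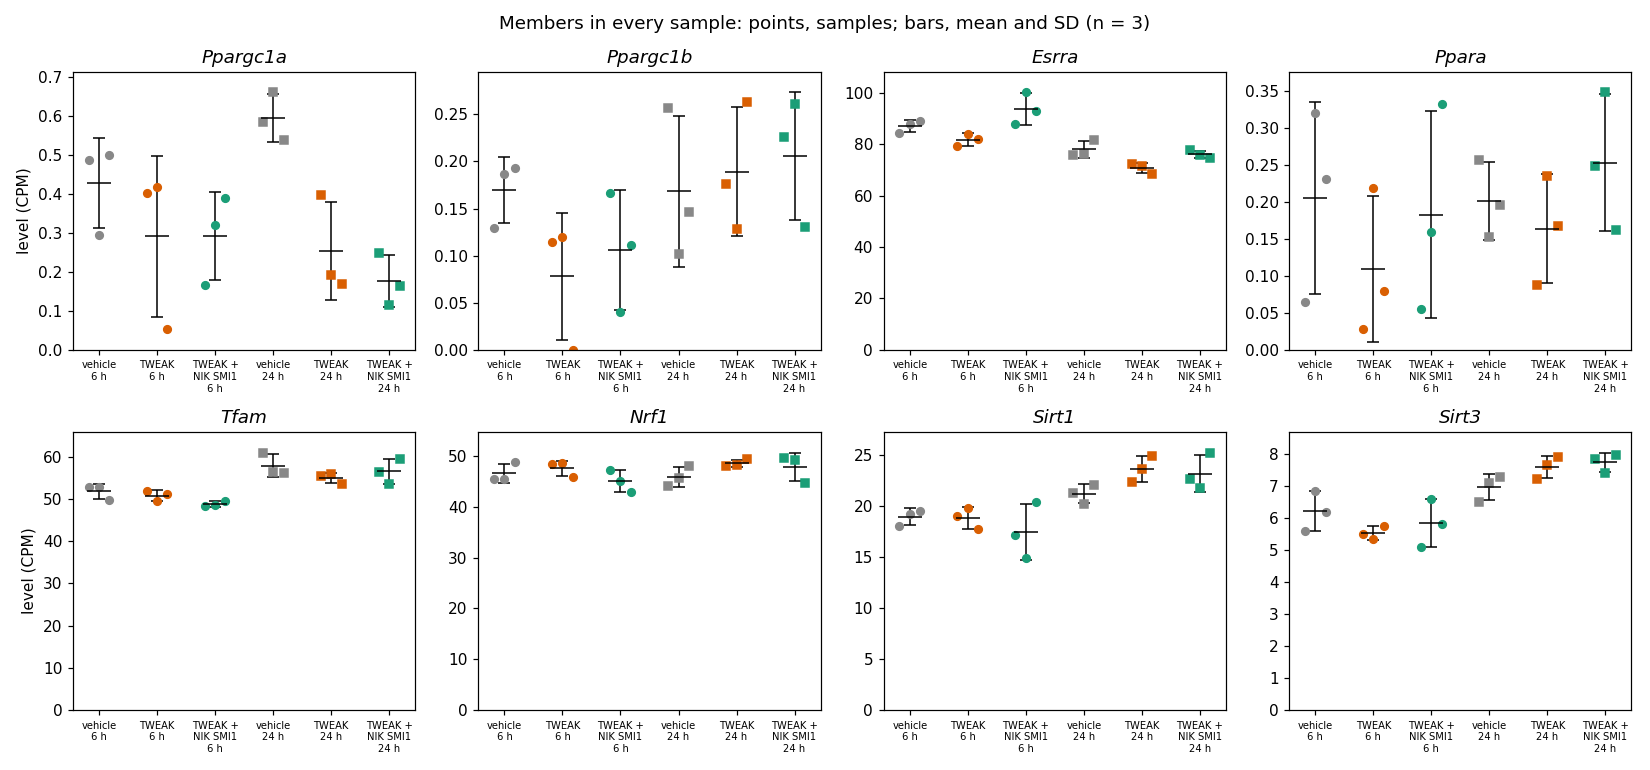
Level of each of the 8 members (CPM, y axis from 0, a separate scale for each gene) in the 6 groups; points are samples, the horizontal bar is the mean and the whiskers the SD of 3 samples. Ppargc1a stands at 0.537 to 0.660 CPM in vehicle at 24 h, above every TWEAK sample of that time. No change of Tfam, Nrf1, Sirt1 or Sirt3 between groups passed the test.

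The first question was what TWEAK alone did to the regulators. At 6 h none of the 7 tested members passed the test (adjusted p below 0.05 in edgeR), and none had an unadjusted p below 0.05, while 11.7% of all 15521 tested genes were higher and 12% lower. DESeq2 called none either. At 24 h Ppargc1a and Esrra were lower and no member was higher, among 18.3% of all tested genes higher and 20.7% lower. A count of 2 of 7 lower is near this background and is not by itself a result about the members. In bulk samples fewer cells of a type and less RNA per cell cannot be told apart, here and in every comparison that follows.

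Ppargc1a was the member with the largest change. At 24 h its level was 0.585, 0.660 and 0.537 CPM in the vehicle samples and 0.397, 0.193 and 0.167 CPM in the samples with TWEAK. Every TWEAK sample lay below every vehicle sample. The mean fell from 0.594 ± 0.062 to 0.252 ± 0.126 CPM (SD, n = 3), a log2 fold change of -1.36 with a SE of 0.47 (95% interval -2.34 to -0.38, edgeR adjusted p = 0.0244). In reads this is 49 over the vehicle samples and 25 over the TWEAK samples, which were sequenced more deeply in sum.

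At 6 h the 3 vehicle samples had 0.486, 0.294 and 0.5 CPM of Ppargc1a and the 3 TWEAK samples 0.402, 0.417 and 0.0528 CPM. The groups overlapped, with the third TWEAK sample, at 2 reads, far below the rest. TWEAK against vehicle gave -0.51 on the log2 scale with a SE of 0.44 (adjusted p = 0.464). The effects at 6 h and 24 h did not differ beyond their error, since the difference between them was -0.85 with a SE of 0.65 on the log2 scale (95% interval -2.18 to 0.49, adjusted p = 0.518). A fall at 24 h and none at 6 h is therefore not shown.

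The second question was whether inhibition of NIK altered this. With NIK SMI1 and TWEAK, Ppargc1a was at 0.167, 0.319 and 0.388 CPM at 6 h and at 0.248, 0.116 and 0.163 CPM at 24 h. At both times these samples overlapped those with TWEAK alone. NIK SMI1 with TWEAK against TWEAK gave a log2 fold change of -0.14 (SE 0.52, adjusted p = 0.908) at 6 h and -0.33 (SE 0.56, 95% interval -1.49 to 0.82, adjusted p = 0.767) at 24 h. Against vehicle at 24 h, the level with NIK SMI1 and TWEAK was lower by a log2 fold change of -1.69 (SE 0.49, adjusted p = 0.0155), with every sample below every vehicle sample. The interval of the difference from TWEAK alone holds both a higher and a lower level.

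The islet reads moved with this result. The 8 islet markers summed to between 14.3 and 29 CPM in all 9 samples at 6 h and in the 3 vehicle samples at 24 h. In the TWEAK samples at 24 h they summed to 13.2, 0.214 and 4.18 CPM, and with NIK SMI1 and TWEAK at 24 h to 0.0451, 0.087 and 0.065 CPM. Ins1, Ins2 and Gcg, defining hormones of islet cells, were at 0 in all 3 samples with NIK SMI1 at 24 h and in the second TWEAK sample. The TWEAK sample with the most islet reads, 13.2 CPM, was also the one with the most Ppargc1a, 0.397 CPM. With only this TWEAK sample kept, the log2 fold change of Ppargc1a at 24 h was -0.57, and with only the sample with the fewest islet reads it was -1.61. Keeping the sample with the most Ppargc1a makes the change smaller by choice, so these fits cannot decide what part the islet reads had. These alternatives were chosen after seeing the data and assume that the lone sample varies like the other groups. At 6 h the third TWEAK sample had the lowest Ppargc1a of all with 15.7 CPM of islet markers. The part of the islet reads in the Ppargc1a result was not tested.

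**Figure D2:**
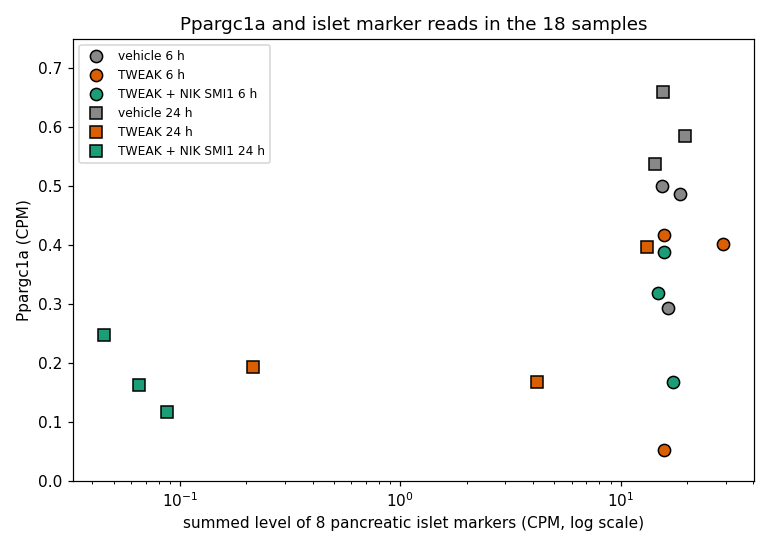
Ppargc1a (CPM, y axis from 0) against the summed level of 8 pancreatic islet markers (CPM, log scale) in the 18 samples; circles are 6 h, squares 24 h, and the colour gives the treatment. All 12 samples outside the TWEAK groups of 24 h lie at 14.3 CPM of islet markers or more, with Ppargc1a from 0.0528 to 0.660 CPM, and the 5 samples with islet markers at 4.18 CPM or less have Ppargc1a between 0.116 and 0.248 CPM.

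The call on Ppargc1a also depended on single samples. It was no longer below the threshold without the first vehicle sample (adjusted p = 0.0706), the second vehicle sample (0.0586), the second TWEAK sample (0.0963) or the third TWEAK sample (0.102). Its value stayed negative in each of these, between -1.15 and -1.37. The call of NIK SMI1 with TWEAK against vehicle at 24 h was lost without the first vehicle sample (log2 fold change -1.71, adjusted p = 0.0567) and without the second NIK SMI1 sample (-1.48, adjusted p = 0.0695).

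Ppargc1b encodes PGC-1β, the second coactivator of the family, which shares the docking partners of PGC-1α. It had 100 reads over the 18 samples and more than 10 in 2 of them, under the filter of more than 10 reads in at least 4 samples. Its level was 0.170 ± 0.035 CPM in vehicle and 0.0781 ± 0.068 CPM in TWEAK samples at 6 h, and 0.168 ± 0.080 and 0.189 ± 0.068 CPM at 24 h (SD, n = 3). With NIK SMI1 and TWEAK it was 0.106 ± 0.064 CPM at 6 h and 0.206 ± 0.068 CPM at 24 h. The third TWEAK sample at 6 h had 0 reads, which allows a level of up to 0.0792 CPM. At 6 h all 3 TWEAK samples, at 0.115, 0.119 and 0 CPM, lay below all 3 vehicle samples, at 0.130, 0.187 and 0.193 CPM, a separation that rests on 10 and 21 reads. The other groups overlapped vehicle of their time. Being below the filter, Ppargc1b was not tested.

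Esrra encodes ERRα, the orphan nuclear receptor through which PGC-1α reaches genes of oxidative phosphorylation. Its level at 24 h was 76.0, 76.3 and 81.8 CPM with vehicle and 72.5, 71.4 and 68.6 CPM with TWEAK. The TWEAK samples all lay below the vehicle samples. TWEAK against vehicle gave a log2 fold change of -0.14 with a SE of 0.04 (95% interval -0.23 to -0.05, adjusted p = 0.0136). It was no longer below the threshold without the third vehicle sample (-0.11, adjusted p = 0.0893) or without the third TWEAK sample (-0.12, adjusted p = 0.0716). The difference was also not found when a change of more than 1.2-fold was tested.

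At 6 h Esrra stood at 84.5, 87.9 and 89.0 CPM with vehicle, at 79.3, 84.1 and 82.0 CPM with TWEAK and at 87.9, 100 and 92.8 CPM with NIK SMI1 and TWEAK. The samples with NIK SMI1 lay above those with TWEAK alone, and the second of them stood highest of all 18. The log2 fold change of NIK SMI1 with TWEAK against TWEAK was 0.19 (SE 0.04, adjusted p = 0.004), which made Esrra the only tested member called in that comparison. There 5.34% of all tested genes were higher and 5.7% lower. Without that second sample the difference was 0.13 (adjusted p = 0.0631). TWEAK against vehicle gave -0.08 (SE 0.04, adjusted p = 0.198) at 6 h.

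At 24 h the NIK SMI1 samples had 77.6, 76.0 and 74.6 CPM of Esrra, again all above the TWEAK samples. The log2 fold change of 0.10 (SE 0.04, adjusted p = 0.114) did not pass the test. None of the 7 members did so in NIK SMI1 with TWEAK against TWEAK at 24 h by edgeR or DESeq2, with 1 at an unadjusted p below 0.05, whereas 10.2% of all tested genes were higher and 8.29% lower. The effect of NIK SMI1 on Esrra did not differ between the times beyond its error (difference -0.09, SE 0.06, adjusted p = 0.491). Against vehicle, Esrra with NIK SMI1 and TWEAK differed by 0.11 (SE 0.04, adjusted p = 0.102) at 6 h and by -0.04 (SE 0.04, adjusted p = 0.636) at 24 h.

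Ppara encodes PPARα, the nuclear receptor that switches on fatty acid oxidation when bound by lipids. It ranged from 0.0287 to 0.348 CPM and no comparison passed the test. Its groups overlapped in every comparison. At 24 h TWEAK against vehicle gave a log2 fold change of -0.27 with a SE of 0.62, and at 6 h -0.80 with a SE of 0.60. With NIK SMI1 against TWEAK the values were 0.35 (SE 0.71) and 0.51 (SE 0.56). The errors are as large as most of the differences.

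Tfam, the packaging and transcription factor of mitochondrial DNA, was at 57.8 ± 2.7 CPM with vehicle at 24 h, at 55.0 ± 1.2 CPM with TWEAK and at 56.5 ± 2.9 CPM with NIK SMI1 and TWEAK (SD, n = 3). The 6 h groups had 51.9 ± 1.8, 50.8 ± 1.2 and 48.8 ± 0.7 CPM in the same order. No comparison passed the test. The interval of TWEAK against vehicle was -0.17 to 0.01 at 24 h and -0.11 to 0.07 at 6 h on the log2 scale.

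Nrf1, the factor that binds the NRF1 core above, had the narrowest range of the 8 members relative to its level, at 42.9 to 49.7 CPM over all 18 samples. Its log2 fold change with TWEAK was 0.04 (SE 0.05, adjusted p = 0.588) at 6 h and 0.09 (SE 0.05, adjusted p = 0.179) at 24 h. With NIK SMI1 against TWEAK it was -0.08 (SE 0.05, adjusted p = 0.341) and -0.02 (SE 0.05, adjusted p = 0.81). None of these passed the test.

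The sirtuins use NAD to remove acyl groups from proteins. Sirt1 was at 21.3, 20.2 and 22.1 CPM with vehicle at 24 h and at 22.4, 23.6 and 24.9 CPM with TWEAK. The first TWEAK sample lay just above the highest vehicle sample, and the log2 fold change of 0.16 (SE 0.08, adjusted p = 0.103) did not pass the test. It did so only when the 24 h samples were fitted alone (0.17, adjusted p = 0.0427). With NIK SMI1 and TWEAK Sirt1 was at 22.6, 21.7 and 25.2 CPM, overlapping TWEAK alone.

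Sirt3 was at 6.5, 7.10 and 7.27 CPM with vehicle, 7.23, 7.66 and 7.91 CPM with TWEAK and 7.85, 7.39 and 7.96 CPM with NIK SMI1 and TWEAK at 24 h. The TWEAK samples overlapped those with vehicle at 1 sample of each. The log2 fold change with TWEAK was -0.16 (SE 0.10, adjusted p = 0.263) at 6 h and 0.15 (SE 0.10, adjusted p = 0.26) at 24 h. Their difference of 0.31 (SE 0.14, unadjusted p = 0.0347, adjusted p = 0.192) was the only interaction among the members with an unadjusted p below 0.05, and it did not pass the test. No member was called in the difference of the TWEAK effect between the times, where 8.91% of all tested genes were called, or in that of the NIK SMI1 effect, where 4.74% were and no member had an unadjusted p below 0.05. DESeq2 called no member in either.

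**Figure D3:**
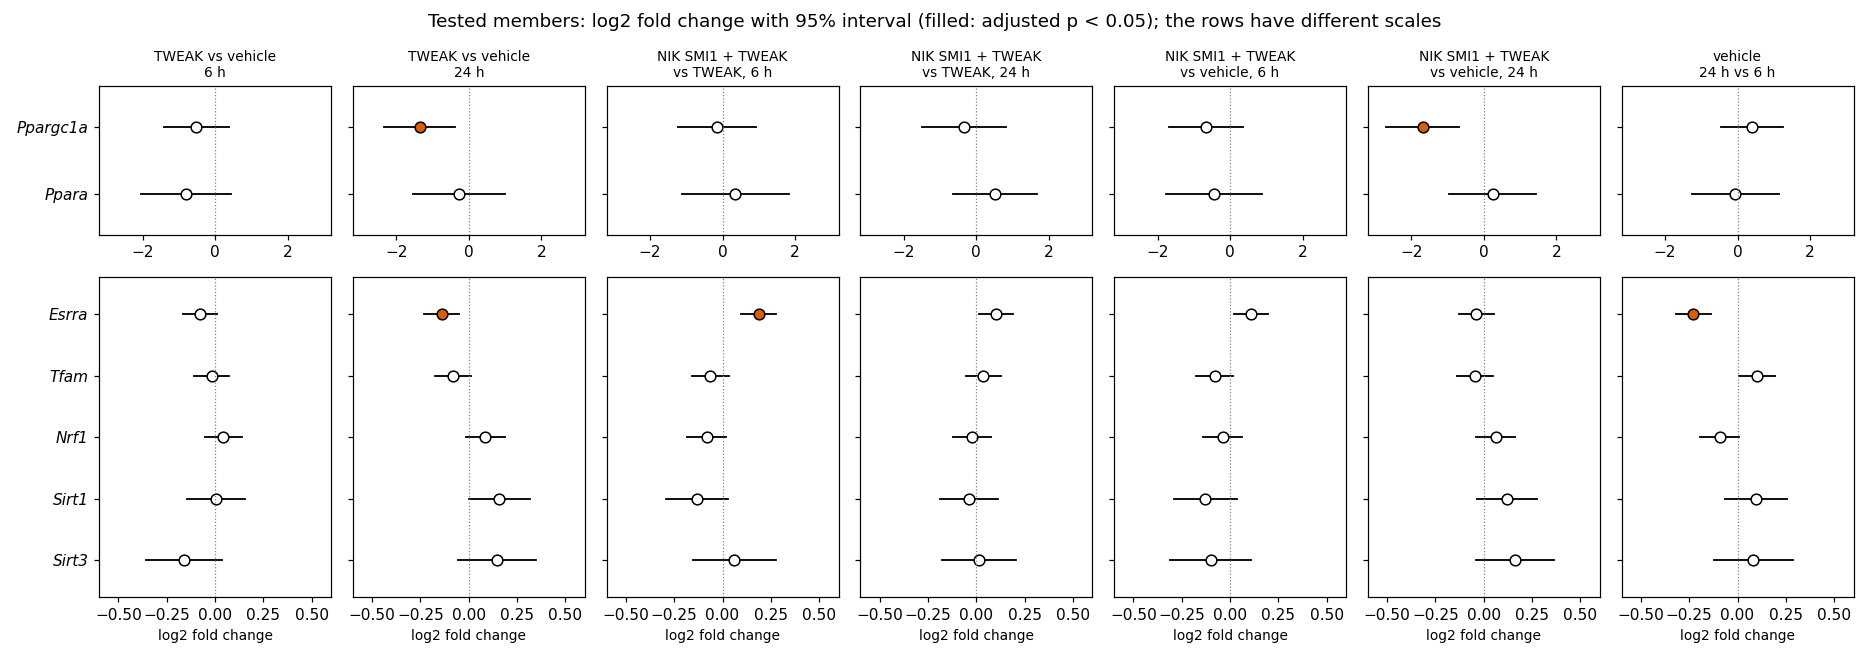
Log2 fold change (x axis) of the 7 tested members in 7 comparisons with its 95% interval; filled points passed the test, and the upper row, for Ppargc1a and Ppara, has a wider scale than the lower row. The intervals of Ppargc1a and Ppara are many times wider than those of Esrra, Tfam and Nrf1, and the filled points are Ppargc1a in 2 comparisons at 24 h and Esrra in 3 comparisons.

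In the samples with NIK SMI1 and TWEAK against vehicle, no member passed the test at 6 h by edgeR or DESeq2, with 1 (Esrra) at an unadjusted p below 0.05. Of all tested genes 7.23% were higher and 6.7% lower there. At 24 h Ppargc1a was the only member called, and 8.07% of all tested genes were higher and 9.83% lower.

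Time in culture changed 1 member. Esrra was lower in vehicle at 24 h than at 6 h by a log2 fold change of -0.23 (SE 0.04, adjusted p = 0.000184), with all 3 later samples below all 3 earlier ones. Of all tested genes, 15.5% were higher and 14.4% lower with time. Ppargc1a was at 0.427 ± 0.115 CPM at 6 h and 0.594 ± 0.062 CPM at 24 h (SD, n = 3; log2 fold change 0.39, SE 0.42, adjusted p = 0.537), a difference that did not pass the test.

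The genes around the members were counted in lists. Of 18 tested regulators that bind or modify PGC-1α or share its targets, TWEAK raised 5 and lowered 2 at 6 h, and raised 8 and lowered 6 at 24 h (median log2 fold change -0.02 and 0.03, against -0.003 and -0.006 for all tested genes). Of all tested genes, 11.7% were called higher and 12% lower at 6 h, and 18.3% higher and 20.7% lower at 24 h. For NIK SMI1 against TWEAK these shares were 5.34% and 5.7% at 6 h, and 10.2% and 8.29% at 24 h. They are the background for the counts of every list that follows. The 14 regulators called at 24 h became 9 without the second TWEAK sample. Pparg, which encodes the PPAR of fat storage and is another partner of PGC-1α, fell most. At 24 h the vehicle samples had 4.02, 4.11 and 4.44 CPM, those with TWEAK 1.41, 0.985 and 0.932 CPM, and those with NIK SMI1 and TWEAK 1.69, 1.39 and 1.63 CPM. All samples of both TWEAK groups lay below the vehicle samples. With TWEAK the log2 fold change was -0.70 (SE 0.15, adjusted p = 0.000969) at 6 h and -1.97 (SE 0.17, adjusted p = 2.9e-10) at 24 h, and NIK SMI1 raised it by 0.56 (SE 0.19, adjusted p = 0.0369) at 24 h, with 1 sample overlapping. The call with TWEAK held in all 18 fits that left out 1 sample at each time, and that with NIK SMI1 in 14 of 18, with the smallest value of 0.46 without the third TWEAK sample (highest adjusted p = 0.163).

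Others of these regulators moved less. Prkaa2, a catalytic subunit of the energy sensor AMPK, fell at 24 h (log2 fold change -0.43, SE 0.14), as did Tfeb, a regulator of lysosome genes (-0.39, SE 0.08). Its relative Tfe3 rose at 6 h (0.20, SE 0.04) and at 24 h (0.31, SE 0.04), and Gabpb1, a subunit of GABP, rose at 6 h (0.30, SE 0.04). Crtc2, a coactivator of CREB, rose by 0.19 (SE 0.05) at 6 h. NIK SMI1 against TWEAK lowered 2 of the 18 at 6 h (Nrip1, a corepressor, by -0.20, and Gabpb1 by -0.17) and at 24 h raised 3 and lowered 4. Among the latter, Tfeb (0.28, SE 0.07), Tfe3 (-0.22, SE 0.04) and Crtc2 (-0.18, SE 0.05) moved opposite to their change with TWEAK. Leaving out single samples gave 2 to 8 calls with NIK SMI1 at 24 h, the fewest without the third NIK SMI1 sample, and 0 to 2 at 6 h, with 0 without the second. Prkaa2 was not called with TWEAK at 24 h without the second vehicle or the second TWEAK sample.

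Of 16 tested genes of mitochondrial DNA transcription and replication, the partners of TFAM, TWEAK raised 1 at 6 h and 3 at 24 h and lowered none. Among all tested genes 11.7% were higher and 12% lower at 6 h, and 18.3% higher and 20.7% lower at 24 h. Lonp1, the matrix protease that degrades TFAM, was at 158 ± 9 CPM in vehicle and 197 ± 1 CPM in TWEAK samples at 6 h and at 181 ± 3 and 234 ± 6 CPM at 24 h (SD, n = 3). Its log2 fold change was 0.32 (SE 0.03) at 6 h and 0.37 (SE 0.03) at 24 h. Polrmt, the RNA polymerase of mitochondria, rose by 0.15 (SE 0.05) and Twnk, the helicase, by 0.13 (SE 0.04) at 24 h. NIK SMI1 against TWEAK changed none of the 16 at 6 h in edgeR, with 5 at an unadjusted p below 0.05, and at 24 h lowered Lonp1 by 0.17 on the log2 scale and raised Mterf4, a factor of mitochondrial ribosome assembly, by 0.19. At 24 h the call of Polrmt with TWEAK held in 16, that of Twnk in 15 and that of Mterf4 with NIK SMI1 in 14 of 18 fits that left out 1 sample. Polrmt was lost without the first vehicle or the second TWEAK sample.

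Of 14 tested target genes of PPARα for fatty acid oxidation, TWEAK raised 2 and lowered 3 at 6 h and raised 5 and lowered 3 at 24 h. Angptl4, a secreted inhibitor of lipoprotein lipase that is also a target of other PPARs, rose by 0.73 (SE 0.08) at 6 h and 0.85 (SE 0.09) at 24 h. Cpt1a, the enzyme that admits fatty acids to mitochondria, fell by 0.28 (SE 0.04) and by 0.23 (SE 0.04) on the log2 scale. Hadhb, a subunit of the trifunctional protein, fell by 0.35 (SE 0.12) at 6 h, Acadm, a dehydrogenase of medium chains, fell by 0.22 (SE 0.07) at 24 h, and Slc25a20, the carnitine carrier, rose by 0.28 (SE 0.06) at 24 h. Hadhb was read at a mean of only 4.87 CPM, whereas Hadha, the other subunit, was at 149 CPM in vehicle at 6 h. The reason for that gap was not tested. Plin2, a coat protein of lipid droplets, was lower at 6 h (-0.25, SE 0.04) and higher at 24 h (0.16, SE 0.04). Pdk4, another gene of the list, had a mean under 1 CPM. At 24 h it was at 0.421, 0.304 and 0.195 CPM in vehicle and 1.19, 0.835 and 0.717 CPM in TWEAK samples. With NIK SMI1 and TWEAK it was at 0.496, 0.261 and 0.65 CPM, below every TWEAK sample. These levels rest on 28, 96 and 51 reads. At 6 h its means were 0.481, 0.938 and 0.539 CPM in the same order. The list thus moved in both directions. NIK SMI1 raised 1 of the 14 at 6 h (Plin2, 0.14) and lowered 3 at 24 h, among them Angptl4 (-0.27) and Cpt1a (-0.13). The 5 calls with TWEAK at 6 h became 3 without the third vehicle or the third TWEAK sample, and Hadhb was then not called. Acadm was not called at 24 h without the third vehicle sample. The 3 calls with NIK SMI1 at 24 h became 1 without any single TWEAK sample of that time or without the second or the third NIK SMI1 sample, and Plin2 was not called at 6 h without the first NIK SMI1 or the second TWEAK sample.

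The 31 tested genes of the citrate cycle, of complexes II, IV and V and of cytochrome c include known nuclear targets of NRF1 and ERRα. TWEAK lowered 2 and raised none at 6 h and raised 2 and lowered 3 at 24 h, and the log2 fold changes of all 31 at 24 h lay between -0.22 and 0.25. Among all tested genes 11.7% were higher and 12% lower at 6 h, and 18.3% higher and 20.7% lower at 24 h. Idh3a, a subunit of isocitrate dehydrogenase, fell by 0.11 at 6 h and by 0.22 at 24 h on the log2 scale, whereas Idh3g, another subunit of it, rose by 0.25 (SE 0.04) at 24 h. Ogdh, the oxoglutarate dehydrogenase, fell by 0.16 (SE 0.03) and Sdha, the flavoprotein of complex II, by 0.12 (SE 0.03) at 24 h. NIK SMI1 against TWEAK raised Ogdh at 6 h (0.11) and Ogdh and Idh3a at 24 h (0.10 and 0.13). Leaving out single samples gave 0 to 3 calls with TWEAK at 6 h, with 0 without the first vehicle sample or the second TWEAK sample, and the call of Idh3a at 6 h held in 6 of 18 such fits. With NIK SMI1 against TWEAK it gave 0 to 3 calls at 6 h and 0 to 2 at 24 h, where no gene was called without the second TWEAK sample or the second NIK SMI1 sample. The summed level of the 31 genes was 6897 ± 113 CPM in vehicle and 7093 ± 2 CPM in TWEAK samples at 24 h (SD, n = 3).

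Among 13 tested genes of the other sirtuins and of NAD supply, TWEAK raised 1 and lowered 1 at 6 h and raised 1 and lowered 4 at 24 h. Sirt6, a nuclear sirtuin, rose at both times (0.28 and 0.24, SE 0.06 each), while Sirt7, a nucleolar one, fell by 0.21 (SE 0.06) at 24 h. Nadsyn1, the synthase of the last step to NAD, fell by 0.44 (SE 0.06) at 6 h and 0.32 (SE 0.07) at 24 h, and Cd38, which consumes NAD, fell by 0.40 (SE 0.10) at 24 h. NIK SMI1 against TWEAK raised Sirt7 at 6 h (0.22, SE 0.06) and lowered Sirt2 at 24 h (-0.12, SE 0.04). The 5 calls with TWEAK at 24 h became 3 without the second vehicle or the third TWEAK sample, and Sirt7 was then not called. The call of Sirt7 at 6 h was lost without the second NIK SMI1 sample, and that of Sirt2 held in 12 of 18 fits that left out 1 sample.

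Of 15 tested genes of mitochondrial dynamics, mitophagy and antioxidant defence, TWEAK raised 1 and lowered 2 at 6 h and raised 2 and lowered 5 at 24 h. At 6 h Mfn2, a mitofusin, and Cat, catalase, fell by 0.16 and 0.14 on the log2 scale and Prdx3, a peroxiredoxin, rose by 0.12. At 24 h Ucp2, a carrier of the inner membrane, fell from 29.9 ± 1.7 to 22.0 ± 1.3 CPM (SD, n = 3), a log2 fold change of -0.43 (SE 0.06), and the mitophagy receptors Bnip3 and Fundc1 fell by 0.63 (SE 0.23) and 0.21 (SE 0.06), while the mitophagy kinase Pink1 rose by 0.16 (SE 0.05). Bnip3 was read at a mean of 1.54 CPM with overlapping samples, and its call held in 14 of 18 fits that left out 1 sample. That of Prdx3 at 6 h also held in 14, and that of Pink1 was lost without the first vehicle sample. NIK SMI1 against TWEAK changed none of the 15 at 6 h in edgeR, with 5 at an unadjusted p below 0.05, and raised Fundc1 at 24 h (0.17, SE 0.05), a call that held in 14 of these 18 fits. At 6 h, 3 of the 15 were called without the third NIK SMI1 sample.

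**Figure D4:**
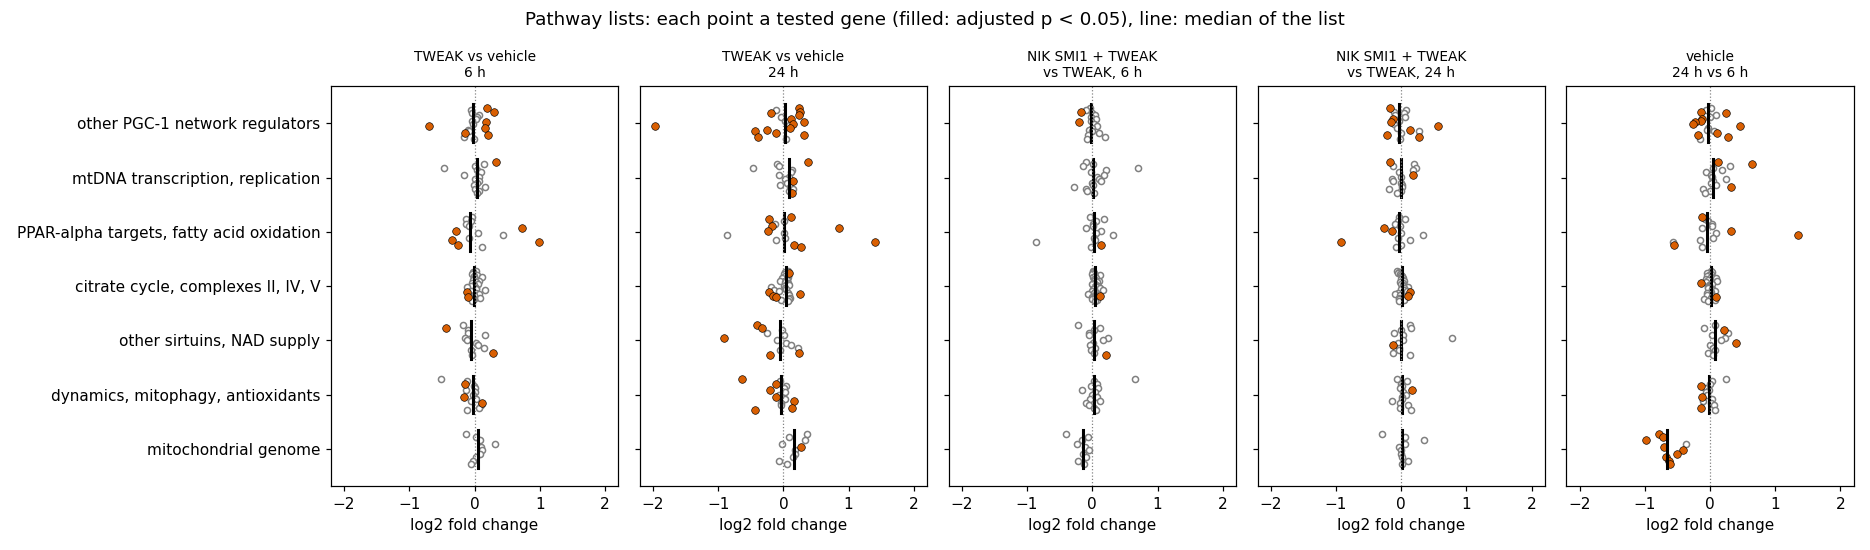
Log2 fold change (x axis) of every tested gene of the 7 pathway lists in 5 comparisons; filled points passed the test and the black line is the median of each list. The nuclear lists keep medians between -0.07 and 0.08 in all 5 panels, with Pparg at -1.97 the furthest point under TWEAK at 24 h, whereas the mitochondrial genome has a median of -0.66 in vehicle at 24 h against 6 h.

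The genes of the mitochondrial genome are transcribed by POLRMT with TFAM as a factor. Of the 13 that encode proteins, 10 were tested. Their summed level was 8185, 9503 and 10200 CPM in vehicle at 6 h and 6743, 6146 and 6138 CPM in vehicle at 24 h. All later samples lay below all earlier ones, and 9 of the 10 genes were lower at 24 h, with a median log2 fold change of -0.66 (range -0.98 to -0.37) against 0.005 for all tested genes. Both ends of this range come from genes under 1 CPM in every sample, mt-Co2 (-0.98) and mt-Co3 (-0.37, not called). Among all tested genes 14.4% were called lower with time. mt-Co1, a subunit of complex IV, fell by 0.72 (SE 0.11) and mt-Cytb, the cytochrome b of complex III, by 0.71 (SE 0.11) on the log2 scale, and mt-Nd1, a subunit of complex I, by 0.42 (SE 0.08). Tfam itself had 51.9 and 57.8 CPM at these times, and its log2 fold change of 0.10 (SE 0.05, adjusted p = 0.106) did not pass the test.

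With TWEAK at 24 h the summed level was 6094, 8870 and 6141 CPM. The second sample stood above every vehicle sample of that time, and the other two lay close to the lower vehicle samples. Of the 10 genes 1 passed the test, mt-Cytb, with 1489, 2329 and 1561 CPM against 1596, 1434 and 1430 CPM in vehicle (log2 fold change 0.27, SE 0.11, adjusted p = 0.0471), and its samples overlapped. The second TWEAK sample carried this value, and without it the log2 fold change was 0.04 (SE 0.08, adjusted p = 0.74). The call was also lost without the second or the third vehicle sample of that time (adjusted p = 0.132 and 0.14), and it held in 12 of 18 fits that left out 1 sample. Without the second TWEAK sample the 1 gene called was mt-Nd5, a subunit of complex I, which was lower (log2 fold change -0.28, SE 0.07, adjusted p = 0.00232). None of the 10 was called with TWEAK at 6 h or with NIK SMI1 against TWEAK at either time in edgeR, with 0, 1 and 0 at an unadjusted p below 0.05. Without the second TWEAK sample at 24 h, 3 of the 10 were called with NIK SMI1 against TWEAK at 24 h and 1 at 6 h. mt-Co2, mt-Atp6 and mt-Co3 stayed under 1 CPM in every sample beside mt-Co1 at 1303 to 2664 CPM, and mt-Atp8, mt-Nd3 and mt-Nd4l did not pass the filter. The authors counted reads with a unique alignment, and copies of mitochondrial DNA in the nuclear genome can make such reads ambiguous, so the levels of these genes are uncertain. The part of this in the low values was not tested.

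**Figure D5:**
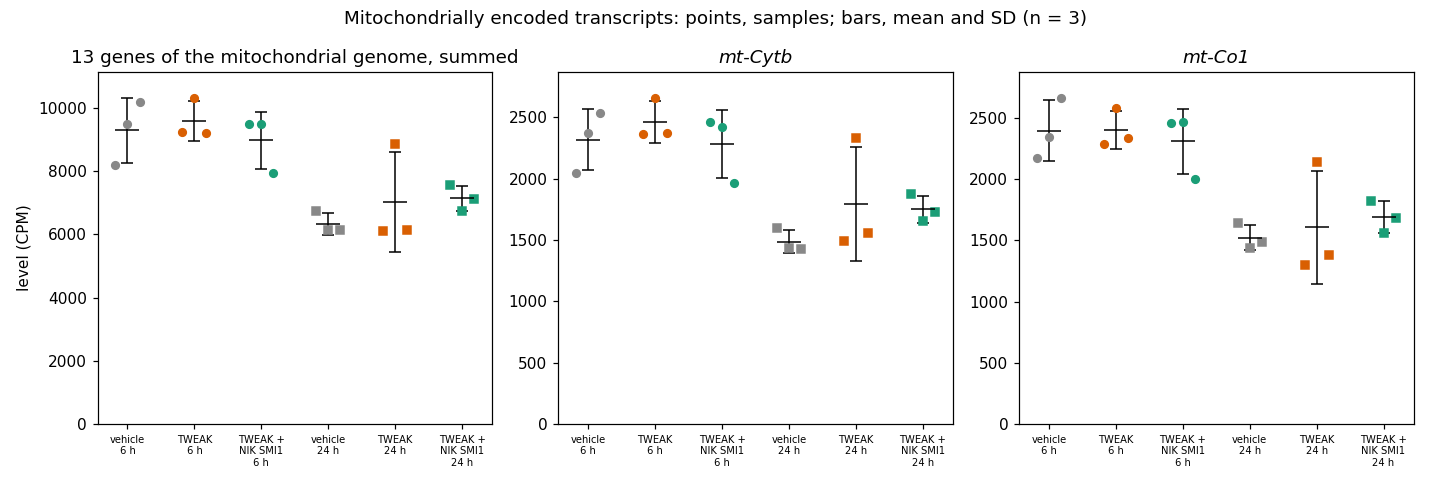
Summed level of the 13 genes of the mitochondrial genome and levels of mt-Cytb and mt-Co1 (CPM, y axis from 0) in the 6 groups; points are samples, the horizontal bar is the mean and the whiskers the SD of 3 samples. The vehicle samples fall from 8185 to 10200 CPM at 6 h to 6138 to 6743 CPM at 24 h, and at 24 h a single TWEAK sample, at 8870 CPM, stands apart from its group.

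Genes with a pattern like that of a called member were looked up over the 18 samples by the Pearson correlation of log2 CPM, as a description with no test. The correlation of Ppargc1a was highest with Nptx1 (r = 0.81), Lztfl1 (0.79) and Omp (0.79), of 13166 genes compared. That of Esrra was highest with Cldn3 (0.97), a claudin of tight junctions, Lrrc8a (0.96), a subunit of a volume-regulated anion channel, and Cystm1 (0.96). The samples share treatment and time, and the few reads of Ppargc1a limit its correlations.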

How the data were processed

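The authors deposited, for each sample, the count of reads in the exons of each gene and an RPKM value, after alignment of single-end reads with GSNAP (run by HTSeqGenie) against NCBI build 37 of the mouse genome, in which only unique alignments were kept. The labels and the methods differ on sequencer and read length. Versions are not given in the sources used here. The kit does not mark strand, so reads of overlapping genes cannot be told apart. The submitters' processing notes name DESeq2.

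Tests used the deposited counts; RPKM entered levels between genes only. Genes with more than 10 reads in at least 4 samples (15521) were fitted as 6 groups of 18 samples in edgeR 4.0.16 (TMM, quasi-likelihood F test, R 4.3.3), with Benjamini-Hochberg adjustment over all of them and a threshold of 0.05. SEs came from the F statistic, and the code was tested on simulated data. Sequencing counted 18040966 to 51956444 reads per sample. CPM were computed on these totals. Symbols and promoters came from RefSeq (GRCm38.p6), and no position was converted between builds. Replicates of a group differed by more than sampling noise, and each was counted. An exact permutation test of 3 against 3 samples cannot go below p = 0.1 and was not used.

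Members and lists were chosen with earlier results of these data known. Named were all members, the mitochondrial genome, up to 4 called genes per list and comparison with the largest change and a mean of at least 1 CPM, the 3 genes most alike to each called member, and control and marker genes. Pdk4, under that mean, was named in addition. Alternatives were DESeq2 1.42.0, its size factors, no filter, filterByExpr, the samples of 1 comparison or time only, glmTreat at 1.2-fold, leaving out each sample, and TMM-scaled levels.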

Additional observations from a re-analysis of the deposited data

Results flagged for a closer look

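No member passed the test of a difference in effect between 6 h and 24 h. Given here are 8 genes of the pathway lists that did so in the interaction test of edgeR, each as the log2 fold change at 24 h minus that at 6 h. Among all tested genes 8.91% were called in this test for the TWEAK effect and 4.74% for that of NIK SMI1.

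The TWEAK effect differed for 4 genes. For Pparg the difference was -1.27 (SE 0.23, adjusted p = 0.000454), from -0.70 at 6 h to -1.97 at 24 h. Plin2 turned from -0.25 at 6 h to 0.16 at 24 h, a difference of 0.42 (SE 0.05, adjusted p = 1.6e-06). Ucp2 went from -0.11 to -0.43, a difference of -0.32 (SE 0.08, adjusted p = 0.0112). For Acadl, a dehydrogenase of long-chain fatty acids, the difference was 0.16 (SE 0.05, adjusted p = 0.043), from -0.04 to 0.12.

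The effect of NIK SMI1 under TWEAK differed for another 4. Cpt1a went from 0.14 at 6 h to -0.13 at 24 h, a difference of -0.27 (SE 0.06, adjusted p = 0.011). Polrmt went from 0.14 to -0.12 (difference -0.26, SE 0.07, adjusted p = 0.0236) and Pink1 from 0.11 to -0.14 (difference -0.25, SE 0.07, adjusted p = 0.0468). Fundc1 went from -0.16 to 0.17, a difference of 0.33 (SE 0.08, adjusted p = 0.0125). Of these NIK SMI1 effects at single times, those of Cpt1a and Fundc1 at 24 h passed the test.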

How the results depend on the processing

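No alternative reversed a called change of a member. Of 1563 alternative log2 fold changes of members, 40 that were not called changed sign. DESeq2, its size factors in edgeR, no filter and filterByExpr kept the number of members called in all 9 comparisons. Testing against a 1.2-fold change, the number of members called went from 2 to 0 for TWEAK at 24 h, and from 1 to 0 for NIK SMI1 with TWEAK against TWEAK at 6 h, for the same samples against vehicle at 24 h (Ppargc1a, adjusted p = 0.0596) and for vehicle over time. The adjusted p of Ppargc1a with TWEAK at 24 h was then 0.0756. Leaving out single samples gave 0 to 2 members called with TWEAK at 24 h, and 0 to 1 for each of NIK SMI1 against TWEAK at 6 h and NIK SMI1 with TWEAK against vehicle at 6 h and at 24 h. The 1 at 6 h against vehicle was Esrra, without the first NIK SMI1 sample (0.15, adjusted p = 0.0322). With only the TWEAK sample of most or of fewest islet reads at 24 h, chosen after seeing the data, Esrra gave log2 fold changes of -0.10 and -0.13. Such a fit leaves 1 TWEAK sample, so its calls are not counted.

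The 14 regulators called with TWEAK at 24 h were 1 against a 1.2-fold change, 8 with only the TWEAK sample of most islet reads and 9 to 15 when single samples were left out, the lowest without the second TWEAK sample. Over the 7 pathway lists, of 129 genes tested or not, calls with TWEAK numbered 20 at 6 h and 43 at 24 h, and 3 and 5 against a 1.2-fold change. Among all tested genes 11.7% were higher and 12% lower at 6 h, and 18.3% higher and 20.7% lower at 24 h. With NIK SMI1 against TWEAK the calls in the lists numbered 5 and 16, against 0 and 0, while 13 were called at 6 h with no filter. The shares of all tested genes there were 5.34% higher and 5.7% lower at 6 h, and 10.2% and 8.29% at 24 h. Calls in the fits that kept 1 TWEAK sample at 24 h are not counted here, because such fits have fewer samples. The causes were not tested.

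With TMM-scaled levels per kilobase, the median of Esrra was 31.4 and that of Tfam 12.9 in place of 30.1 and 12.4, and the order of the members was kept. Depth limits Ppargc1a, Ppara and Ppargc1b, whose highest sample had 26, 12 and 11 reads. No paired analysis was possible because the labels give the samples no replicate numbers.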
